A study of Mus musculus with 36 samples.

Results

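The comparison described here set the severe *Chd8* hypomorph (neo/-) against the mild hypomorph (neo/neo) in the embryonic mouse neocortex. The 3 libraries labelled neo/- were compared with the 3 labelled neo/neo, and every gene that passed a filter on low counts was taken, which left 18810 genes of the 46603 in the E12.5 count table. The 6 libraries belong to a set of 12 E12.5 libraries, 3 for each of 4 *Chd8* genotypes. The other 6, +/+ and +/-, were used to estimate the spread between embryos and as a reference for levels. All were polyA-selected, paired-end RNA sequencing libraries of the cortex at embryonic day 12.5, each from a single embryo on the C57Bl/6J strain, with replicates from separate litters.

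Both groups carried the neo allele, in which a neo cassette lies between exons 3 and 4 of *Chd8* and transcripts splice into it. In neo/neo embryos both alleles were of this kind. In neo/- embryos 1 was replaced by a null allele that lacks exon 3. The change in dosage was present in every tissue, not only in neurons. neo/neo embryos came from crosses between neo/+ parents and neo/- embryos from crosses of neo/+ with +/- parents, so an effect of genotype and an effect of the cross cannot be told apart. The study compared each mutant with +/+, and the contrast between the 2 hypomorphs answers a different question: which transcripts differ when *Chd8* dosage falls further from an already reduced level.

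CHD8 is a chromatin remodeller of the chromodomain helicase family. It uses ATP to move nucleosomes and is found at many active promoters and enhancers. It was described as a repressor of β-catenin target genes and of p53, and loss-of-function variants in the human gene are among the strongest known risk factors for autism, often with a large head. In the early neocortex the gene is expressed in the progenitors that line the ventricle, the radial glia and intermediate progenitors, and in the neurons they produce.

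The libraries held between 42303206 and 61051667 counted fragments in neo/neo and between 45696702 and 55686466 in neo/-, so depth did not separate the groups. The sexes were not balanced. *Xist*, the RNA of the inactive X chromosome, was at 2011 and 1828 CPM (counts per 1000000 fragments, scaled by TMM) in neo/neo 1 and 2, but at 2.49 in neo/neo 3. It lay between 1.46 and 2.40 CPM in all 3 neo/- libraries, and the Y-linked genes showed the opposite pattern. The neo/- group was therefore wholly Y-expressing and neo/neo held 1 Y-expressing library. Of 6 X-linked genes that escape inactivation, all 6 had a lower mean in neo/-, such as *Kdm6a* at 105, 105 and 64.2 CPM in neo/neo and 64.0, 67.2 and 65.7 CPM in neo/-. Results were accordingly repeated with a term for sex, and with the 8 Y-expressing libraries of the 12, where neo/neo is represented by 1 library assumed to vary like the other groups. Markers of the dorsal telencephalon, the labelled tissue, were all detected, and their summed level was 1494 to 1665 CPM in neo/neo and 1442 to 1643 CPM in neo/-. *Hoxa2* and *Hoxb1*, hindbrain genes, had no count in any of the 6 libraries.

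*Chd8* itself (ENSMUSG00000053754; chr14:52198151-52257723 on GRCm38, minus strand) was read first, as the check of the labels. It was at 213, 203 and 211 CPM in neo/neo and at 158, 147 and 142 CPM in neo/-. The 2 groups did not overlap, and every neo/- library was also below every +/- library (165 to 170 CPM). *Chd8* fell by 0.49 on the log2 scale (SE 0.043; 95% interval -0.58 to -0.40; adjusted p = 0.00024, edgeR quasi-likelihood test with Benjamini-Hochberg adjustment). The +/+ libraries stood at 237 ± 2.41 CPM (SD, n = 3) and neo/neo at 209 ± 5.64 CPM. neo/neo thus counted more *Chd8* fragments than +/- at 167 ± 3.04 CPM. Fragments were counted over all exons of the gene, so a transcript that runs into the cassette is counted with the full-length one, and the order of these counts is not an order of full-length transcript.

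Genes that differed between the hypomorphs were few. At an adjusted p under 0.05, 3 of 18810 genes were called (0.0159% of those tested), 2 higher in neo/- and 1 lower: *Ide*, *Zcwpw1* and *Chd8*. None of the 3 had overlapping groups. The next gene had an adjusted p of 0.22. Without adjustment, 772 genes had a p under 0.05 and a higher mean in neo/- (4.1%) and 813 a lower one (4.32%), and the groups did not overlap for 1502 genes in the higher direction (7.99%) and 1353 in the lower (7.19%). The median log2 fold change of all genes was 0.0028, with quartiles at -0.08 and 0.09. With offsets that take out each library's dependence on exon length and GC content, the split of genes with an unadjusted p under 0.05 became 519 higher and 835 lower (2.77% and 4.46%). With a term for sex the shares at that p were 2.27% higher and 2.58% lower. Without neo/neo 3 they were 7.9% and 6.41%. List counts under these fits are to be set beside these shares. DESeq2, the tool of the study, called 28 genes of the 12967 to which it gave an adjusted p (0.216%), 17 higher and 11 lower, and these included the 3 above. Of the 28, 2 were on X or Y: *Xist*, lower in neo/- where no library had high *Xist*, and *Xk*, higher. With only the 8 Y-expressing libraries edgeR called none, with 1032 genes at an unadjusted p under 0.05; *Chd8* then differed by -0.50 (adjusted p = 0.21). DESeq2 was not run on those 8.

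**Figure D1:**
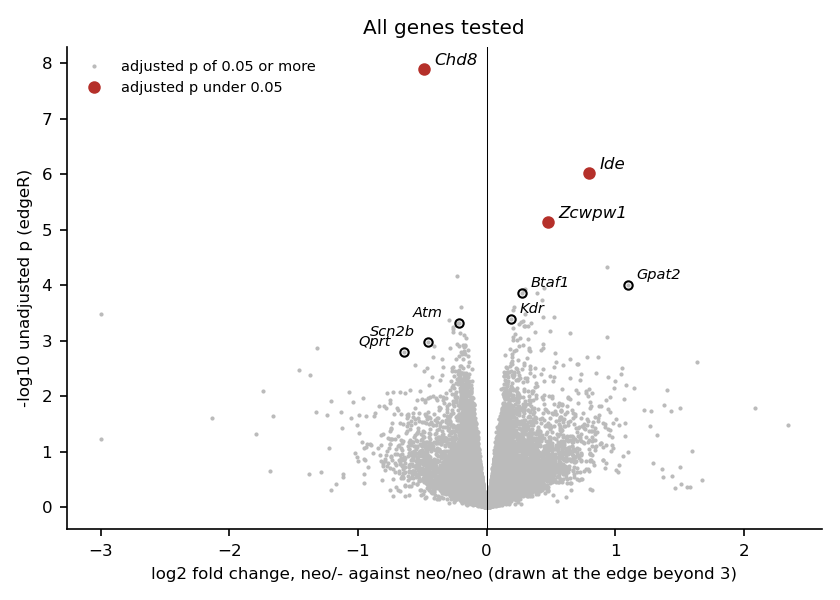
Log2 fold change of neo/- against neo/neo (horizontal axis) and -log10 of the unadjusted edgeR p (vertical axis) for the 18810 genes tested, each a point. The 3 genes called are red, and 6 further genes of the text are ringed. *Chd8* lies alone on the left, at -0.49, and *Ide* and *Zcwpw1* on the right, at 0.80 and 0.48.

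*Zcwpw1* (chr5:137787798-137822621, plus strand), a reader of the histone H3 trimethylation marks that PRDM9 writes in meiosis and a gene known mainly from the germline, was higher in the severe hypomorph. It was at 19.16, 20.5 and 19.8 CPM in neo/neo and at 29.05, 26.6 and 27.1 CPM in neo/-, from 811 to 1492 fragments per library. It rose by 0.48 on the log2 scale (SE 0.070; 95% interval 0.33 to 0.63; adjusted p = 0.046, edgeR), or 1.39-fold. The levels of the other genotypes were lower still, at 9.33 ± 0.70 CPM in +/+, from 411 to 468 fragments, and 13.9 ± 1.13 CPM in +/- (SD, n = 3 each). The 4 genotypes did not overlap at any step. The order of *Zcwpw1* levels, +/+ under +/- under neo/neo under neo/-, is a description, and its other steps were not tested here. The call was close to the threshold: with a term for sex the difference was 0.42 and the adjusted p 0.93, with exon length and GC trends removed it was 0.45 and 0.054, and it was missed when any 1 of the 6 compared libraries other than neo/neo 3 was left out. It was also missed without +/+ 1, +/+ 3 or +/- 1, with only the 6 libraries, with the replicate number as a block, with 1 of the 2 sequencing runs alone and among Y-expressing libraries. The difference itself lay between 0.42 and 0.50 in all of these. The 46 tested neighbours within 500 kb had a median log2 fold change of 0.01, and 1 of them had an unadjusted p under 0.05.

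**Figure D2:**
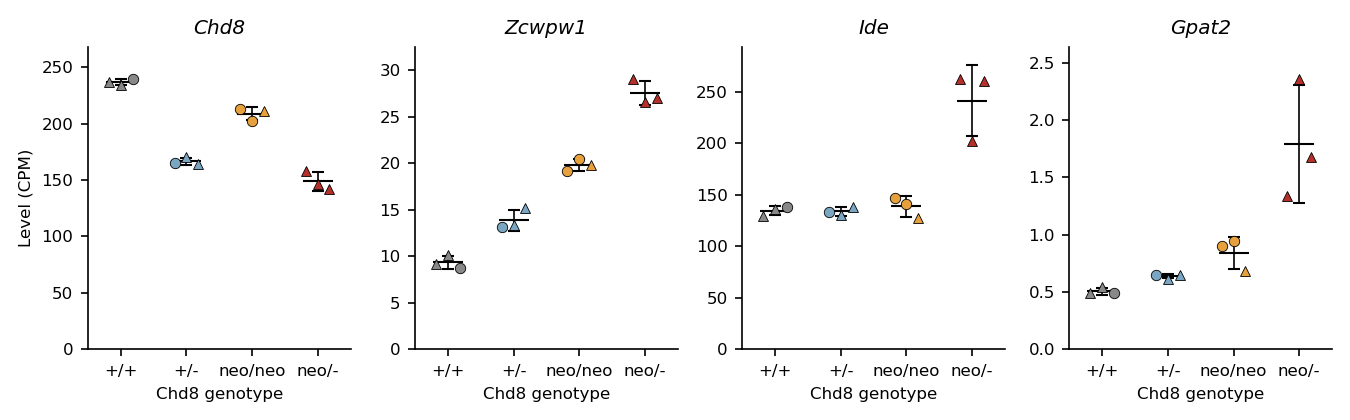
Level in CPM of *Chd8*, *Zcwpw1*, *Ide* and *Gpat2* (vertical axes, from 0) in the 12 libraries by genotype, with circles for libraries with high *Xist*, triangles for Y-expressing libraries, and bars at the mean ± SD of 3. *Ide* is near 135 CPM in 9 libraries and above 200 CPM in the 3 neo/- libraries.

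*Ide* (chr19:37268743-37337852, minus strand), which encodes insulin-degrading enzyme, a zinc metalloprotease that also degrades amyloid-β, showed the largest rise among the genes called. It was at 147, 141 and 128 CPM in neo/neo and at 262, 202 and 260 CPM in neo/-. The rise was 0.80 on the log2 scale (SE 0.087; 95% interval 0.61 to 0.99; adjusted p = 0.0091, edgeR), or 1.74-fold. The other 9 libraries, of 3 genotypes, lay between 128 and 147 CPM with a median of 136 CPM. Relative to that median, neo/- 1, 2 and 3 were at 1.93, 1.49 and 1.92 times. *Ide* levels thus lay in 1 range from +/+ to neo/neo and above it in all 3 neo/- libraries, in contrast to the stepped order of *Zcwpw1*. Its other steps were not tested here. With a term for sex *Ide* kept its call. The call was lost when only the 6 libraries were fitted (0.80, adjusted p = 0.50) and with the replicate number as a block in those 6. It was also lost when neo/neo 2 was left out (0.81, adjusted p = 0.079) and among Y-expressing libraries, where the difference was 0.92.

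Within 500 kb of *Ide* 10 other genes were tested, with a median log2 fold change of 0.03. The only one of the 10 with an unadjusted p under 0.05 was *Btaf1*, which starts 343 kb from it and encodes an ATPase that removes TBP from DNA. *Btaf1* was at 132, 122 and 116 CPM in neo/neo and at 158, 139 and 151 CPM in neo/-, a difference of 0.27 (SE 0.053) that was not called by edgeR (adjusted p = 0.24) and was called by DESeq2 (adjusted p = 0.010). Its order among the neo/- libraries was that of *Ide*, at 1.32, 1.17 and 1.27 times the median of the other 9. Between them, *Cpeb3*, an RNA-binding regulator of translation, had a difference of 0.19 (SE 0.11) and *March5*, a mitochondrial ubiquitin ligase nearer to *Ide*, 0.02 (SE 0.044). *Rpl10-ps6*, a pseudogene within *Ide* at under 1 CPM in both group means, was at 0.25 (SE 0.21), and *Kif11*, the mitotic kinesin on the other side, at -0.04 (SE 0.048). Whether the neo/- embryos differ from the rest at this locus in DNA sequence or copy number was not tested.

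**Figure D3:**
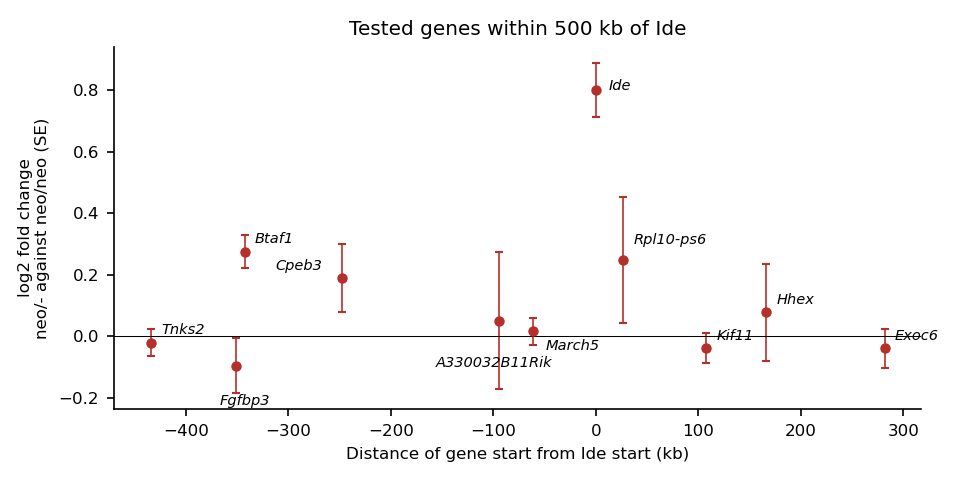
Log2 fold change of neo/- against neo/neo, with its SE as the bar (vertical axis), for the 11 tested genes within 500 kb of *Ide*, by distance of each gene's lower coordinate from that of *Ide* in kb (horizontal axis). *Ide* stands at 0.80, *Btaf1* at 0.27, *Rpl10-ps6* at 0.25 and *Cpeb3* at 0.19, the latter pair with wider bars, and *A330032B11Rik*, *Tnks2*, *Fgfbp3*, *March5*, *Kif11*, *Hhex* and *Exoc6* lie between -0.10 and 0.08.

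Germline genes are silent in most somatic cells, held by DNA methylation and by the PRC1.6 repressor complex, and *Zcwpw1* led a list of 50 of them. Only 22 passed the filter on low counts. Of these 22, 18 had a higher mean in neo/- and 5 had an unadjusted p under 0.05 in that direction (22.7%, against 4.1% of all genes), with none in the other. 6 of the 22 had groups without overlap in the higher direction (7.99% of all genes). The median log2 fold change was 0.20. It was 0.10 with a term for sex, when 3 of the 5 remained (2.27% of all genes were higher), and 0.15 among Y-expressing libraries. Only *Zcwpw1* was called.

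*Gpat2*, a glycerol-phosphate acyltransferase of the testis linked to piRNA metabolism, followed *Zcwpw1* in the list. Its levels were 0.90, 0.94 and 0.68 CPM in neo/neo and 1.34, 2.36 and 1.68 CPM in neo/-, from 36 to 132 fragments. The difference was 1.10 (SE 0.21; 95% interval 0.66 to 1.54) and its adjusted p was 0.24. As for *Zcwpw1* the levels of the other genotypes were lower, at 0.51 ± 0.031 CPM in +/+ and 0.64 ± 0.021 CPM in +/-, and the pair of them did not overlap. *Tdrd1*, a Tudor-domain scaffold of the piRNA pathway, was at 1.13, 0.86 and 0.98 CPM in neo/neo and 1.69, 1.45 and 1.37 CPM in neo/- (0.61, SE 0.26, adjusted p = 0.57), and with a term for sex its difference was 0.24. *Tdrkh*, another Tudor protein of that pathway, which is also well expressed in the cortex, was at 65.8, 68.2 and 61.8 against 71.1, 68.7 and 71.5 CPM (0.11, SE 0.045). *D1Pas1*, a testis RNA helicase and a retrocopy relative of *Ddx3x* with which it can share reads, was under 1 CPM throughout. *Ddx4*, *Dazl*, *Sycp2* and *Prdm9*, defining genes of germ cells and meiosis, differed by 0.33, 0.21, 0.08 and 0.01, with SEs from 0.13 to 0.32.

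Of the 6 germline genes with separate groups in the higher direction, the promoters of *Zcwpw1*, *Gpat2* and *Tdrd1* are printed. Those of *Tdrkh* and *D1Pas1*, also among the 6, are not. The printed promoters are the 250 bases before the RefSeq start on GRCm38.p6, on the gene's strand. Each CG dinucleotide, the target of DNA methylation, is in capitals. The stretches are chr5:137787552-137787801, chr2:127424949-127425198 and chr19:56825959-56826208, all on the plus strand.
Zcwpw1: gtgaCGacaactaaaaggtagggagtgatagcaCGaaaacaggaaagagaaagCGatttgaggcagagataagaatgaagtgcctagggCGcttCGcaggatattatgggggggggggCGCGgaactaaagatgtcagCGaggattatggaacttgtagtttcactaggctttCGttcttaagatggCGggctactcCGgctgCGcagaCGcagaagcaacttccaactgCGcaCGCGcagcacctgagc
Gpat2: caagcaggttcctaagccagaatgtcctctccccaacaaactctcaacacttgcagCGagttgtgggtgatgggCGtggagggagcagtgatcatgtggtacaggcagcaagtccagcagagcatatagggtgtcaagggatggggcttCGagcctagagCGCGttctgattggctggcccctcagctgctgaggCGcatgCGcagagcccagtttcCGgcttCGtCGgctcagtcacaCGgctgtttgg
Tdrd1: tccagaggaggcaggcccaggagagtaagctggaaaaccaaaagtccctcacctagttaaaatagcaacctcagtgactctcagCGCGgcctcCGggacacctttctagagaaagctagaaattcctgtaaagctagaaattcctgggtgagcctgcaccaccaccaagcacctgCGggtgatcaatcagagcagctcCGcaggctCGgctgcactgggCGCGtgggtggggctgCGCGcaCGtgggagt
They hold 16, 11 and 11 CG dinucleotides, and the median over the 12601 tested genes with a promoter in the table is 15, with quartiles at 8 and 22. The E-box CACGTG, searched on both strands, is in the *Tdrd1* promoter and not in the other two. It is in 999 of the 12601 promoters (7.93%) and in 5 of the 20 germline genes with a promoter: *Ddx4*, *Slc25a31*, *Stag3*, *Taf9b* and *Tdrd1*. TCCCGC, the core of an E2F site, also searched on both strands, is in none of the 3. It is in 29.2% of all promoters and in 8 of the 20. A match of letters is not evidence that a factor binds there.

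The 8 largest rises and 8 largest falls were taken from 304 genes off the sex chromosomes with an unadjusted p under 0.01, at least 50 fragments per library on average and separate groups. *Chd8* is the only one of these 16 that was called. On the side of higher means in neo/- stood *Dynlt1f*, *Gpat2*, *Hsd3b6*, *Gm37527*, *Slfn14*, *A530040E14Rik*, *Cd36* and *Cited4*, with differences of 1.14 to 0.82. *Hsd3b6*, a steroid dehydrogenase, was at 14.2, 7.01 and 16.2 CPM in neo/neo and at 21.2, 31.5 and 26.1 CPM in neo/-, while +/+ lay at 13.4 to 19.3 CPM. *Slfn14*, which encodes an endoribonuclease of red cell and platelet precursors, was at 1.30, 0.98 and 1.45 CPM against 1.84, 2.77 and 2.48 CPM. Its levels were 1.85 to 2.35 CPM in +/+ and 1.56 to 2.71 CPM in +/-, both overlapping neo/-. *Cd36*, a fatty acid receptor of endothelium and macrophages, was at 0.57, 0.61 and 0.90 CPM against 1.08, 1.30 and 1.43 CPM. Its +/+ levels, 0.57 to 0.98 CPM, lay below neo/-, and its +/- levels, 0.99 to 1.30 CPM, overlapped neo/-. *Gm37527* overlaps *Kel*, which encodes the Kell blood group protein. It was at 1.52 to 2.27 CPM in neo/- and 1.51 to 2.60 CPM in +/+. *A530040E14Rik* was at 0.95 ± 0.077 CPM against 1.82 ± 0.30 CPM (SD, n = 3 each), with +/+ below neo/- at 1.06 to 1.19 CPM. It overlaps 2 other gene models, so its reads cannot be assigned with certainty. *Dynlt1f* is 1 of 4 near-identical copies of a dynein light chain gene. It was at 5.22, 5.62 and 12.9 CPM in neo/neo and 16.5, 16.02 and 20.3 CPM in neo/-, but +/+ was at 16.05 to 20.3 CPM, and the 4 copies summed were at 85.0 to 91.6 and 80.3 to 95.2 CPM, which overlap.

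On the side of lower means stood *Qprt*, *Lingo3*, *Plekhg4*, *Pcsk4*, *Chd8*, *Aspdh*, *Scn2b* and *Sall4*, with differences of -0.64 to -0.43. *Scn2b*, the β2 subunit of voltage-gated sodium channels, was at 3.496, 3.47 and 4.01 CPM in neo/neo and 2.53, 2.71 and 2.78 CPM in neo/-. The +/+ libraries were higher, at 7.50 to 7.98 CPM, and +/- at 4.93 to 6.05 CPM, so that the 4 genotypes were again separate at each step, in the order opposite to that of *Zcwpw1*. It differed by -0.45 between the hypomorphs (SE 0.11, adjusted p = 0.41) and had an unadjusted p of 0.00064 with a term for sex. *Qprt*, an enzyme of NAD synthesis, was at 2.69, 3.17 and 2.07 CPM against 1.62, 1.64 and 1.83 CPM. Here +/+, at 1.79 to 2.23 CPM, overlapped both groups. *Sall4*, a zinc finger regulator of pluripotent cells, was at 8.65, 8.87 and 7.01 CPM against 5.89, 6.68 and 5.66 CPM, with +/+ at 5.19 to 7.25 CPM. Among Y-expressing libraries *Qprt* differed by -0.29 and *Sall4* by -0.21, and of the genes with higher means *Hsd3b6* by 0.70 and *Cd36* by 0.49.

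p53 is the transcription factor that answers DNA damage and stress, and its targets arrest the cycle or start apoptosis. Of 38 direct p53 targets 36 were tested and none was called. Of the 36, 8 had an unadjusted p under 0.05 with a higher mean in neo/- (22.2%, against 4.1% of all genes). With a lower mean 1 had such a p (2.78%, against 4.32%). Groups were separate in the higher direction for 8 (22.2%, against 7.99% of all genes) and in the lower for none (7.19% of all genes). The median log2 fold change was 0.05, and 24 of 36 were above 0. *Eda2r*, a TNF receptor family member on the X chromosome, was at 2.95, 3.07 and 3.41 CPM in neo/neo and 4.42, 4.30 and 4.06 CPM in neo/- (0.44, SE 0.12). *Ccng1*, cyclin G1, was at 48.9, 56.9 and 52.0 CPM against 63.1, 58.9 and 65.7 CPM (0.25, SE 0.073). *Phlda3*, a repressor of AKT, was at 4.75, 4.99 and 5.29 CPM against 6.54, 5.73 and 6.16 CPM (0.29, SE 0.11). The other 5 were *Trp73*, *Trp53inp1*, *Bax*, *Cdkn1a* and *Mdm2*, with differences of 0.10 to 0.21. The adjusted p of all 8 lay between 0.48 and 0.57. The member with a lower mean was *Pmaip1*, which encodes the apoptosis inducer Noxa, at -0.45 (SE 0.20). Its level was 6.26, 5.64 and 3.62 CPM in neo/neo and 3.12 to 4.14 CPM in neo/-, so that neo/neo 3 lay inside the neo/- range, and among Y-expressing libraries it differed by 0.06.

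With a term for sex 4 of the 36 had an unadjusted p under 0.05 in the higher direction (2.27% of all genes). Of these, 2 were among the 8 above, and the median stayed at 0.05. With exon length and GC trends removed 4 of the 8 remained, and the median was 0.03. *Trp53* was at 146, 140 and 141 CPM in neo/neo and 148, 144 and 140 CPM in neo/-, a difference of 0.02 with a 95% interval of -0.09 to 0.12. *Atm*, the kinase that activates p53 after double-strand breaks, was at 101, 95.3 and 90.1 CPM against 81.3, 86.6 and 78.8 CPM. It differed by -0.22 (SE 0.049), which edgeR did not call (adjusted p = 0.34) and DESeq2 did (adjusted p = 0.046). The +/+ libraries, at 87.6 to 91.7 CPM, lay above neo/- and overlapped neo/neo. Among Y-expressing libraries *Atm* differed by -0.13. Of 12 tested genes of p53 and its upstream kinases, 1 had an unadjusted p under 0.05 in the higher direction (8.33%, against 4.1% of all genes). In the lower direction 2 did (16.7%, against 4.32%). *Atr* differed by -0.07 (95% interval -0.18 to 0.04). Of 25 genes of the BCL2 family and caspases 1, *Bax*, had an unadjusted p under 0.05 (4%, against 4.1% of all genes), and the list's median was 0.01.

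Besides *Chd8*, most listed chromatin regulators had lower means in neo/-, though none of them was called except *Zcwpw1*, which was higher. Of the 9 other CHD remodellers, 8 had a lower mean in neo/- and 4 had an unadjusted p under 0.05: *Chd1*, *Chd2*, *Chd3* and *Chd9*, with differences of -0.10 to -0.15 (44.4% against 4.32% of all genes). *Chd3*, an ATPase of the NuRD complex, was at 415, 419 and 478 CPM in neo/neo and 382, 400 and 398 CPM in neo/-. *Chd2*, a gene of epileptic encephalopathy, was at 150, 135 and 148 CPM against 129, 136 and 125 CPM. The list's median was -0.12, and with a term for sex it was -0.09 with 2 members lower at an unadjusted p under 0.05 (2.58% of all genes). The smallest adjusted p among them was 0.51.

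Of 36 tested enzymes and readers of histone methylation, 30 had a lower mean, 8 of them with an unadjusted p under 0.05 (22.2%, against 4.32% of all genes). Separate groups in the lower direction were seen for 12 (33.3%, against 7.19% of all genes). The members' differences ran from -0.47, also the lowest value among the X genes that escape inactivation, to 1.47. A higher mean was seen for 6, of which only *Zcwpw1* had an unadjusted p under 0.05 (2.78%, against 4.1% of all genes). *Ash1l*, a histone H3 lysine methyltransferase of the Trithorax group, was at 150, 138 and 139 CPM in neo/neo and 127, 130 and 124 CPM in neo/- (-0.16, SE 0.039). *Kmt2e* was at 199, 201 and 199 CPM against 173, 186 and 171 CPM (-0.18, SE 0.046). *Kdm5b*, a demethylase of active promoters, was at 190, 201 and 197 CPM against 175, 187 and 189 CPM (-0.09, SE 0.042), while +/+ and +/- stood at 220 to 242 CPM. The list's median was -0.08. With a sex term it was -0.05, with 2 members lower at an unadjusted p under 0.05 (2.58% of all genes). Among Y-expressing libraries it was -0.01.

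Among 18 tested genes of DNA methylation and its removal, 14 had a lower mean and 3 had an unadjusted p under 0.05 in that direction (16.7%, against 4.32% of all genes). The list's median was -0.05. It was -0.01 with a sex term, with 1 member lower at an unadjusted p under 0.05 (2.58% of all genes), and -0.0026 among Y-expressing libraries. *Dnmt3a*, a de novo DNA methyltransferase, was at 232, 215 and 214 CPM in neo/neo and 193, 198 and 181 CPM in neo/- (-0.21, SE 0.048, adjusted p = 0.37). Its +/+ mean was 281.2 ± 13.2 CPM and its +/- mean 243 ± 1.62 CPM, so the 4 genotypes lay in a stepped order. *Tet1*, which oxidises methylated cytosine, was at 61.1, 61.3 and 58.7 CPM against 54.0, 54.5 and 56.6 CPM (-0.13, SE 0.044), with +/+ at 70.2 to 71.6 CPM. *Tet3* differed by -0.17 (SE 0.059), and by -0.10 with a sex term.

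Of 108 tested autism-associated genes 20 had an unadjusted p under 0.05 with a lower mean in neo/- and 1, *Rorb*, with a higher one. The share of 18.5% compares with 4.32% of all genes, and 27 had separate groups in the lower direction (25%, against 7.19% of all genes). Among the 20 are chromatin regulators such as *Ash1l*, *Kmt2e*, *Chd2*, *Chd3*, *Nsd1* and *Kdm6b*. *Irf2bpl* was at 108, 115 and 122 CPM in neo/neo and 93.5, 106 and 97.1 CPM in neo/- (-0.22, SE 0.067). *Ddx3x*, an X-linked RNA helicase that escapes inactivation, is among the 20 at 978, 999 and 770 CPM against 783, 743 and 770 CPM. Its groups overlap, with neo/neo 3 inside the neo/- range, and among Y-expressing libraries it differed by -0.01. The list's median was -0.05. It was -0.03 with a sex term, with 9 members lower at an unadjusted p under 0.05 (2.58% of all genes). When exon length and GC trends were removed it was -0.04 with 11 lower (4.46% of all genes). Without neo/neo 3 the list had 21 members lower and 10 higher at an unadjusted p under 0.05 (6.41% and 7.9% of all genes). Among Y-expressing libraries, with 1 of neo/neo, the list's median was -0.05. Exon length moved with the direction. The median exon length was 10056.5 bases in the autism list and 9583 bases among the CHD remodellers, and the upper quartile of all tested genes began at 5542 bases: in the longest quartile of all tested genes 338 of 4702 had an unadjusted p under 0.05 with a lower mean and 158 with a higher one, and in the shortest 86 and 196 of 4703. The part of transcript length in these lists was not tested beyond that alternative.

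Neuronal and progenitor genes depended on which neo/neo embryos were compared. Of 35 cortical neuron genes 31 had a higher mean in neo/-, with a median of 0.11. Only 1 had an unadjusted p under 0.05 (2.86%, against 4.1% of all genes): *Neurod1*, a transcription factor of newborn neurons. It was at 40.0, 38.2 and 38.1 CPM in neo/neo and 47.4, 41.6 and 43.9 CPM in neo/- (0.19, SE 0.062). *Stmn2*, a tubulin regulator of growing axons, was at 177, 208 and 245 CPM in neo/neo and 251, 228 and 265 CPM in neo/-. Here neo/neo 3 was inside the neo/- range and the other two were below it. Without neo/neo 3, the median of the neuron list was 0.22. In that fit 18 of 35 had an unadjusted p under 0.05 in the higher direction (7.9% of all genes). Among Y-expressing libraries, where neo/neo 3 is the only one of its genotype, the median of the neuron list was -0.07. The REST targets, neuronal genes that REST silences elsewhere, had medians of 0.21 and -0.13 in the same selections, and synaptic and ion channel genes 0.15 and -0.14. With all libraries their medians were 0.10 and 0.06.

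Genes of cycling cells had medians on the other side of 0. Of 39 E2F targets of the G1/S transition 33 had a lower mean in neo/-, with a list median of -0.06. An unadjusted p under 0.05 was seen for 3 (7.69%, against 4.32% of all genes), *Ccne1*, *Tk1* and *Brca2*, all lower. *Ccne1*, cyclin E1, was at 40.3, 40.6 and 35.5 CPM in neo/neo and 34.1, 35.3 and 32.8 CPM in neo/-. The E2F median was -0.11 without neo/neo 3, with 13 lower at an unadjusted p under 0.05 (6.41% of all genes). It was -0.01 with a sex term and 0.05 among Y-expressing libraries. DNA replication genes had a median of -0.04 and mitosis genes -0.03, and both were above 0 among Y-expressing libraries. Radial glia had a median of -0.07. Of the 28 tested, 3 had an unadjusted p under 0.05 with a lower mean (10.7%, against 4.32% of all genes). With a higher mean 1 had such a p (3.57%, against 4.1%): *Mfge8*, the first of the list by p. It was at 38.2, 38.5 and 35.9 CPM in neo/neo and 40.3, 40.7 and 41.9 CPM in neo/-. Among the 3 lower were *Sox2* and *Emx2*. *Sox2*, a factor that keeps progenitors, was at 274.4, 291 and 249 CPM against 245, 258 and 227 CPM. *Emx2*, a patterning factor of the dorsal cortex, was at 160, 143 and 129 CPM against 126, 139 and 113 CPM. Intermediate progenitor genes had 2 members at an unadjusted p under 0.05 in each direction (9.52% each, against 4.1% higher and 4.32% lower of all genes). Their median was -0.02, with *Dll1*, a Notch ligand, at -0.19 (SE 0.059) as the first by p. In bulk tissue fewer cells of a type and less RNA per cell cannot be told apart.

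**Figure D4:**
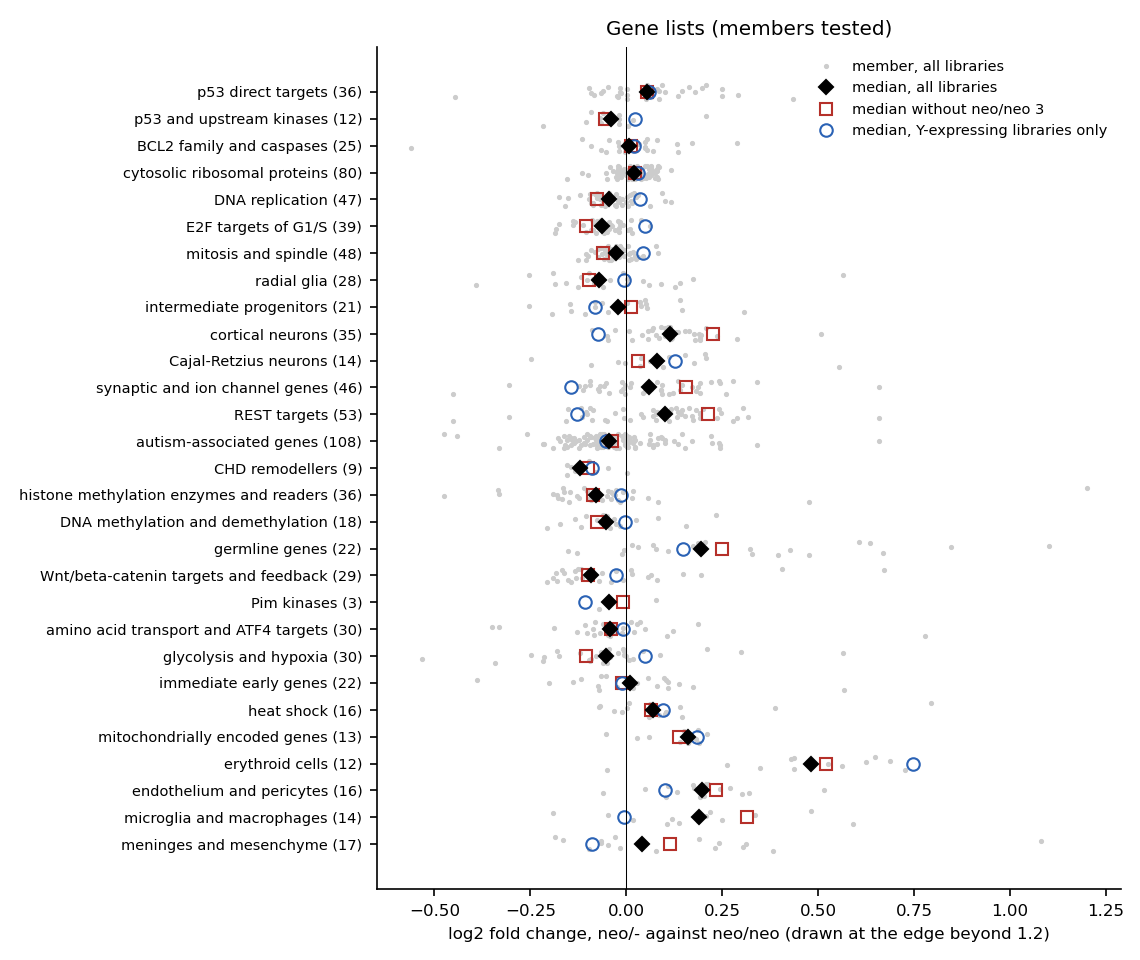
Log2 fold changes of neo/- against neo/neo (horizontal axis) of the tested members of 29 gene lists (rows, with the number tested): grey points are members, black diamonds the median with all libraries, red squares the median without neo/neo 3, blue circles the median among Y-expressing libraries only. The neuron, synaptic and REST rows have squares to the right of 0 and circles to the left, while the p53, CHD, autism, germline, erythroid and endothelial rows keep 1 side of 0.

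Vessel and blood genes had higher means in neo/-. Of 16 markers of endothelium and pericytes 15 had a higher mean and 8 had an unadjusted p under 0.05 (50% against 4.1% of all genes), with none lower. Their summed level was 379 to 422 CPM in neo/neo and 440 to 476 CPM in neo/-, without overlap, but +/+ was at 422 to 440 CPM, so that neo/- lay just above +/+. *Kdr*, the main VEGF receptor, was at 69.1, 72.0 and 69.5 CPM in neo/neo and 75.9, 83.2 and 81.3 CPM in neo/- (0.19, SE 0.042, adjusted p = 0.34). *Esam*, an endothelial junction protein, was at 13.9, 14.3 and 15.6 CPM against 17.1, 17.3 and 18.4 CPM, and *Abcc9*, a potassium channel subunit of pericytes, at 14.2, 13.7 and 15.8 CPM against 18.7, 18.2 and 17.7 CPM. With a sex term the list's median was 0.12 in place of 0.20, with 5 higher at an unadjusted p under 0.05 (2.27% of all genes). Among the 28 genes that DESeq2 called, chosen here after their values were seen, were *Kdr*, *Cd34*, *Cd93*, *Aplnr*, *Tgfbr2* and *Col4a2*, all with higher means in neo/- and all known from endothelium, by 0.19 to 0.30.

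Of 12 tested erythroid markers 11 had a higher mean and 4 had an unadjusted p under 0.05 (33.3%, against 4.1% of all genes): the globins *Hbb-y*, *Hbb-bt* and *Hba-x*, and *Alas2*, the first enzyme of heme synthesis in red cells. *Hbb-y*, the embryonic β-type globin, was at 1973, 1582 and 1913 CPM in neo/neo and 2242, 3793 and 3014 CPM in neo/- (0.73, SE 0.20, adjusted p = 0.48). The summed level was 3588 to 4270 CPM in neo/neo and 4670 to 7263 CPM in neo/-, and +/- reached 4718 CPM. The list's median was 0.48 and 0.52 with a sex term, with 1 member then higher at an unadjusted p under 0.05 (2.27% of all genes). Microglia and macrophage markers had a median of 0.19 with 3 of 14 at an unadjusted p under 0.05, *Lyz2*, *Mrc1* and *Csf1r* (21.4%, against 4.1% of all genes), and summed levels that overlapped, 55.3 to 71.1 and 63.2 to 75.5 CPM. The median among Y-expressing libraries was -0.01. Mesenchyme markers of the meninges had a median of 0.04, and summed levels of 600 to 769 and 692 to 802 CPM.

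The part of blood and vessel RNA in the other results was not tested.

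Of 13 mitochondrially encoded genes 12 had a higher mean in neo/- and 7 had an unadjusted p under 0.05 (53.8% against 4.1% of all genes). They are subunits of the respiratory chain made inside the mitochondrion. *mt-Co1* was at 8013, 8209 and 8028 CPM in neo/neo and 9001, 9101 and 9381 CPM in neo/-, and *mt-Atp6* at 300, 308 and 305 CPM against 353, 336 and 351 CPM. The summed level was 24186 to 25542 CPM in neo/neo and 26811 to 28305 CPM in neo/-, without overlap. The +/+ libraries spanned 24272 to 29175 CPM, a range that holds most of both groups. The +/- libraries, at 28474 to 29631 CPM, lay above all of neo/-. With exon length and GC trends removed none of the 13 had an unadjusted p under 0.05, with a median of 0.09.

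**Figure D5:**
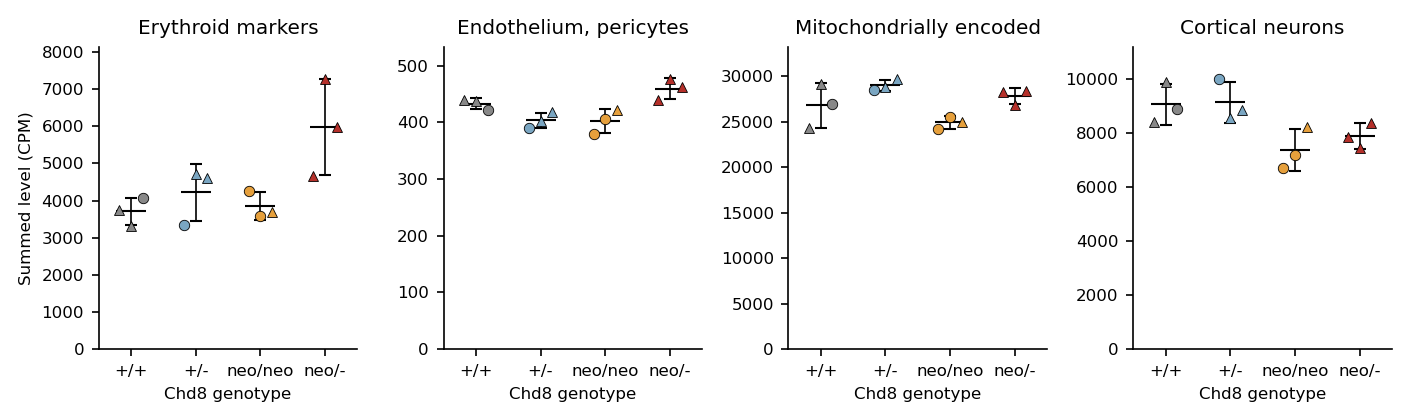
Summed CPM of 4 gene lists (vertical axes, from 0) in the 12 libraries by genotype, with circles for *Xist*-high and triangles for Y-expressing libraries and bars at the mean ± SD of 3. Erythroid, endothelial and mitochondrial sums separate neo/- from neo/neo, and the +/+ libraries overlap or adjoin the neo/- range in the last; cortical neuron sums overlap.

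None of the genes of the remaining lists was called. Of 29 Wnt/β-catenin targets and feedback genes, 3 had an unadjusted p under 0.05, all lower (10.3%, against 4.32% of all genes), *Sp8*, *Znrf3* and *Emx2*, and the median of -0.09 became -0.04 with a sex term and -0.03 among Y-expressing libraries. *Axin2*, the classical β-catenin target, was at 94.99, 79.0 and 73.2 CPM in neo/neo and 72.3, 79.0 and 73.8 CPM in neo/-, which overlap (-0.13, 95% interval -0.35 to 0.09). The 80 cytosolic ribosomal protein genes had a median of 0.02 and no member with an unadjusted p under 0.05. *Rpl26* differed by 0.07 (95% interval -0.07 to 0.21) and *Pim1*, a growth-promoting kinase, by 0.08 (95% interval -0.06 to 0.22). The Pim kinases had a median of -0.05. Amino acid transport and ATF4 targets had a median of -0.04. Of the 30, 4 had an unadjusted p under 0.05 with a lower mean (13.3%, against 4.32% of all genes). These were *Stc2*, *Slc38a1*, *Atf4* and *Ddit4*, by -0.08 to -0.33, and none of the 4 remained with a sex term. With a higher mean 1 had such a p (3.33%, against 4.1% of all genes). It was *Trib3*, a pseudokinase induced by stress and the first of the list by p, at 0.78 (SE 0.21). *Slc1a5*, the glutamine transporter, overlapped at -0.11 (95% interval -0.27 to 0.06). Glycolysis and hypoxia genes had a median of -0.05, with 3 of 30 lower at an unadjusted p under 0.05 (10%, against 4.32% of all genes). Immediate early genes had a median of 0.01. Heat shock genes had a median of 0.07, with 1 member at an unadjusted p under 0.05 and 7 of 16 with separate groups, all higher (43.8%, against 7.99% of all genes). Cajal-Retzius neurons had a median of 0.08, with 2 of 14 higher at an unadjusted p under 0.05 (14.3%, against 4.1% of all genes). *Nlgn3*, a synaptic adhesion gene of the X chromosome, differed by 0.09 with overlapping groups. *Slc9b2*, a sodium/proton exchanger, was at 7.32, 5.93 and 4.71 CPM against 4.09, 4.91 and 4.04 CPM, with +/+ at 3.49 to 4.72 CPM (-0.46, SE 0.16), and among Y-expressing libraries it differed by -0.11. Markers of other tissues had no member with an unadjusted p under 0.05: ventral telencephalon (median 0.03), cortical hem and choroid plexus (0.02), eye and diencephalon (-0.11), midbrain and hindbrain (0.22), surface ectoderm (-0.03) and neural crest and sensory neurons (0.32, with summed levels of 51.5 to 71.2 and 63.3 to 83.3 CPM). Of the 8 dorsal telencephalon markers 1 did, *Emx2*, with a list median of -0.07.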

How the data were processed

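Per the study's methods and the labels, total RNA from single E12.5 cortices was polyA-selected, made into dUTP libraries and sequenced on 2 lanes. The authors trimmed reads with Trim Galore 0.4.1, aligned them with TopHat2 2.1.0 to GRCm38 and counted fragments per Ensembl gene with featureCounts 1.5.0 without using strand, so antisense overlaps cannot be told apart. The deposited values are whole-number counts, and none of the deposited columns was left unassigned. Here the 2 runs of each library were summed and 46005 of 46603 identifiers were paired with a symbol.

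The contrast neo/- minus neo/neo was fitted in edgeR 4.0.16 (R 4.3.3) with TMM scaling, filterByExpr and the robust quasi-likelihood test over all 12 libraries with genotype as the only term, and p-values were adjusted by Benjamini-Hochberg over all genes. CPM are scaled by TMM. The spread between embryos was a biological coefficient of variation of 0.0866. Alternatives were DESeq2 1.42.0, other scalings, no filter, the 6 libraries, single runs, a replicate block, a sex term, GC and length offsets and each library left out. The fit on Y-expressing libraries was added after seeing the data. Named genes were *Chd8*, the genes called, the 8 largest rises and falls described in the text, the genes the study names, the first 3 of each list by p, genes within 500 kb of a called gene and sex-linked markers. Others named are said to be chosen after their values or are members of a counted list. A few genes that the rule covers are not reported here. The gene lists (25, and 13 of markers) were written from general knowledge, and the comparison and lists were chosen with earlier results of these data known. Lists are described by counts and medians with no set test. The script was tested on simulated data.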

Additional observations from a re-analysis of the deposited data

How the results depend on the processing

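The number of genes called, 3 in the main fit, was 28 by DESeq2, 9 with no filter on low counts, 1 with only the 6 libraries, 1 with the replicate number as a block in those 6, and 0 with only the Y-expressing libraries. With 1 library left out at a time it ranged from 1, without neo/neo 2, to 23, without neo/neo 3 (14 higher and 9 lower, 3 of them on X or Y). The 23 include *Chd8*, *Ide* and *Zcwpw1*. Other scalings, single runs, a sex term, GC and length offsets and the genes off X and Y gave 2 to 4. The *Chd8* log2 fold change was called in every alternative except the Y-expressing libraries, where it was -0.50. Replicate numbers did not pair the samples: libraries of neo/neo and neo/- with the same number deviated from their groups with correlations of 0.08, -0.04 and 0.12 across genes. With the block in the 12-library fit 2 genes were called, *Chd8* and *Ide*. Of 5144 values of the other 207 named genes, none reversed a called direction, 19 lost a call, all of *Ide* or *Zcwpw1*, and 11 gained one. The cause of these shifts was not tested. With 3 embryos a group the median standard error was 0.093 on the log2 scale.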
